A study of Mus musculus with 6 samples.

Results

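The genes described here are 40 of the most abundant transcripts of mouse chromosome 1 in the embryonic retina, among 1140 complete rows of the deposited gene table. They were chosen on their measured level: both group values had to reach 50 FPKM (sequenced fragments, corrected for transcript length and for how many fragments a library mapped), and the locus had to span under 200000 bases. Of 67 rows at that level, 27 were left out by name, among them ribosomal, respiratory chain, chaperonin and DNA replication genes. The study compared retinas of C57BL/6 mice at E15.5, an embryonic stage, in 2 groups of 3 libraries, each library a pool of 8 retinas. The control group was T2fx/+, which the submitters call wild type. The other group was T2Isl1/+, a knock-in of Isl1 at the Tbr2 locus. In both groups the altered allele is paired with an unaltered one, so every animal is labelled as a heterozygote. Isl1 is a LIM-homeodomain transcription factor that newborn ganglion cells use to mature. Tbr2 is a T-box factor needed by some of these cells. In the knock-in, the inserted Isl1 therefore depends on where and when the Tbr2 locus is active. Whole retinas mix those cells with all others.

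Most of these genes serve functions that nearly every growing cell needs. At this stage the retina holds dividing progenitors together with newly born neurons, and both need splicing, actin remodelling, protein modification and membrane traffic. Such genes are usually expressed from promoters rich in CG dinucleotides, often without a TATA box. Some members also have specialised roles, such as glutamine synthetase in glia and glypican at the cell surface.

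The promoter sequences of 6 members are shown because they differ in motif content. All 6 lie in the upper part of the set by level, with Ptp4a1 the lowest of them at 86.5 FPKM in T2fx. Each run is the 250 bases before a RefSeq transcript start on GRCm38.p6, the assembly called mm10, written 5′ to 3′ on the gene's strand. Capitals mark any match on either strand to 4 motifs. The TATA box was searched as TATAAA. For the CCAAT box the letters were those of its name. The GC box was searched as GGGCGG. For the core of an ETS factor site the letters were CCGGAAG.
Ptma, chr1:86526307-86526556, plus strand: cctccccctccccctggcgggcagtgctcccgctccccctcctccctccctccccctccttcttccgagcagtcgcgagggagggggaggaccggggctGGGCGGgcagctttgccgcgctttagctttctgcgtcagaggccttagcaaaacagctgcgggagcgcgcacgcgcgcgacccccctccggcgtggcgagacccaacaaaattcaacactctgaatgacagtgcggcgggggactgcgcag
Snrpe, chr1:133610281-133610530, minus strand: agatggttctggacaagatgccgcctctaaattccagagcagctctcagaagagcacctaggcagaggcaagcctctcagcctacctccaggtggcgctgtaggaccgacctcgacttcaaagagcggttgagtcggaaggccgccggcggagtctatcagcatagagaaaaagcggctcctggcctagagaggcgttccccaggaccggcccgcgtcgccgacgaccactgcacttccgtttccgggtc
Glul, chr1:153899679-153899928, plus strand: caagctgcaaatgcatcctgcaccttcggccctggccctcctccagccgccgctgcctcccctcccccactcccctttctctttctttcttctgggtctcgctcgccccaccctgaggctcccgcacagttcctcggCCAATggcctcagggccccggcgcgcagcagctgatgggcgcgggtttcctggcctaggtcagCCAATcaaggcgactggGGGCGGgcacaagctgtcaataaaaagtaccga
Gas5, chr1:161034916-161035165, plus strand: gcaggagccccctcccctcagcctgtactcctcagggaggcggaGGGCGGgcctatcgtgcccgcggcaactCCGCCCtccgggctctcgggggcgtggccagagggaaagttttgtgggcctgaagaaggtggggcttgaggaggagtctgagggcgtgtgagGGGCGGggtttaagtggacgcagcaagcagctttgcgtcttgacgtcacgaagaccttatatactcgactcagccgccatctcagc
Actr3, chr1:125435728-125435977, minus strand: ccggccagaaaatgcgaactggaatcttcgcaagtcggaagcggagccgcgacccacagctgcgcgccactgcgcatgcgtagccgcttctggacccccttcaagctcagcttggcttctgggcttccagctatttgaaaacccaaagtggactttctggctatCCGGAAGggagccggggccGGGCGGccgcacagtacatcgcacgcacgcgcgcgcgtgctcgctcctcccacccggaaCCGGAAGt
Ptp4a1, chr1:30949756-30950005, minus strand: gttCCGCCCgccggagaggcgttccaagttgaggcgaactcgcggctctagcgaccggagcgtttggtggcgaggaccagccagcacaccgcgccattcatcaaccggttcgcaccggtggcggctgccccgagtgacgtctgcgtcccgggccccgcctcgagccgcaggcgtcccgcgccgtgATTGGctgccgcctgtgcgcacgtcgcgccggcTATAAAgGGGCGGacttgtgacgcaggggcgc
Ptma, the most abundant member, has a single GC box here, and Snrpe has none of the motifs. Glul has CCAAT boxes at -113 and -50 and a GC box at -33, counted from the transcript start. Gas5 has GC boxes at -206, -178 and -86. Actr3 has ETS cores at -86 and -8 with a GC box at -67. Ptp4a1 has the TATA box of the set, at -32, beside a CCAAT box at -65 and GC boxes at -247 and -25. Its deposited locus reaches to base 30950111, so this window lies inside the locus and not before it.

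RefSeq windows were matched for 32 members and for 522 of the 646 rows that the authors had tested. GC boxes were in 23 of the 32 members' windows (71.9%), against 60.5% of tested rows and 32.7% of 32851 RefSeq windows of the same length. CCAAT was in 13 (40.6%), against 34.9% and 33.8%. The ETS core was in 8 (25%), against 9.96% and 6.91%. Those 8 were Actr1b, Actr3, Bzw1, Dhx9, Dtymk, Ivns1abp, Myeov2 and Smap1. TATAAA was in 1 window (3.12%), against 4.02% of tested rows and 12.4% of all RefSeq windows. The median ratio of observed to expected CG dinucleotides was 0.82 in the members, 0.74 in tested rows and 0.37 in all RefSeq windows. These shares describe letters in a window, and a match is not a bound site. Members with no matched window included Tcea1, Map4k4, Gpc1, Fam168b and the 3 rows with joined names.

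Levels differed far more between genes than between genotypes. Ptma stood at 2856 FPKM in T2fx and 3005 FPKM in T2Isl1, and the lowest member in T2fx, Smap1, at 51.7 and 55.2 FPKM. In T2Isl1 the lowest was the joined row of Hjurp, at 52.3 FPKM. The median member had 80.4 FPKM in T2fx and 84.1 FPKM in T2Isl1. In T2fx 14 of the 40 lay under 65 FPKM, while 15 had at least 100 FPKM in both groups. The order of the members was nearly the same in both groups (Spearman's rho 0.98 over 40 genes, which share the same libraries). FPKM is scaled by transcript length, so these levels can be set beside each other, but only roughly. Shared sequence, overlapping loci and joined rows, described below, may also shift them. Each group value is the authors' single combined estimate, so neighbours in this order cannot be separated by a replicate spread. In these bulk samples, fewer cells of a type and less RNA per cell cannot be told apart.

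**Figure D1:**
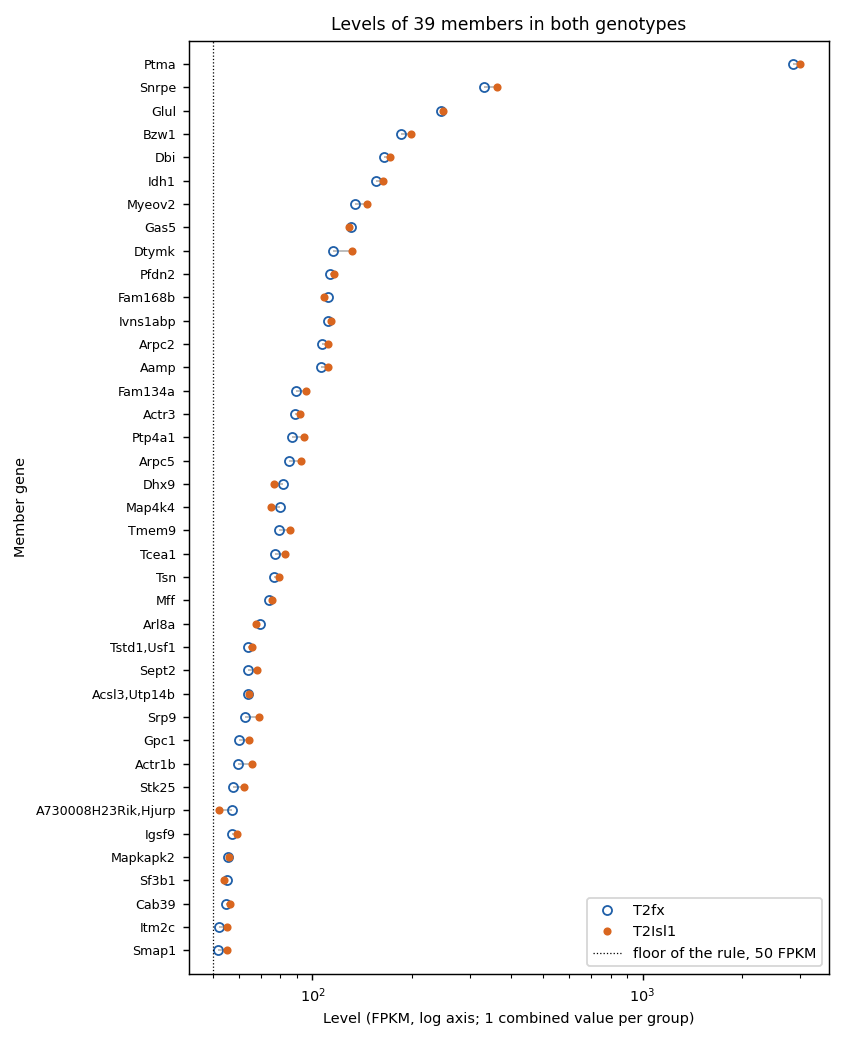
Level of 39 of the 40 members in FPKM on a log axis, with T2fx as open circles, T2Isl1 as filled circles and the 50 FPKM floor as a dotted line. Ptma stands alone at 2856 and 3005 FPKM, and in every row the 2 circles lie close together.

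Together the members held 32.4% of all FPKM over the 1140 rows in T2fx and 33.8% in T2Isl1. Ptma alone held 13.8% and 14.4%, and the 5 most abundant members held 18.2% and 19.2%. The lens crystallin rows fell in the same comparison, from 5.0% to 0.45% of the FPKM. With those 7 rows left out of the total, the members' share was 34.1% in T2fx and 34.0% in T2Isl1.

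No member passed the authors' test. At a q-value under 0.05, 0 of 40 members were called in the authors' deposited table, against a background of 1.55% of the 646 tested rows (10 rows). At an unadjusted p-value under 0.05 the count was also 0 of 40, with a background of 3.72% (24 rows). The authors ran 1 tool, and the p-values of the members in the authors' deposited table went from 0.173 for Dtymk to 0.916 for Mapkapk2. Both group values had been used to choose the members, so nothing is read from these counts. The p-values rest on 3 libraries per group. They cannot be taken to cover a spread between litters, since the labels do not say that the pools came from separate litters.

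The differences were small in each gene and mostly had the same sign. Of the 40 members, 33 had a higher value in T2Isl1 and 7 a lower one (82.5% higher, against 54.6% of tested rows). Their median log2 fold change in the authors' deposited table was 0.06, against 0.01 over all tested rows, and the range was -0.13 to 0.19. In 36 of 40 the T2Isl1 value lay within 10% of the T2fx value, and 0 reached 1.5-fold, a size met by 3.25% of tested rows. Abundant rows that the name rule had removed were alike in sign, with 22 of 27 higher and a median of 0.11 in the authors' deposited table. Rows at 20 FPKM or more in both groups, but under 50 FPKM in at least 1, had 89 of 128 higher (69.5%), with a median of 0.05 in the authors' deposited table. Rows of at least 1 FPKM in both groups that missed the 20 FPKM level had 46.6% higher and a median of -0.01 in the authors' deposited table. These counts describe sets of genes measured in the same libraries, and genes are not replicates.

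**Figure D2:**
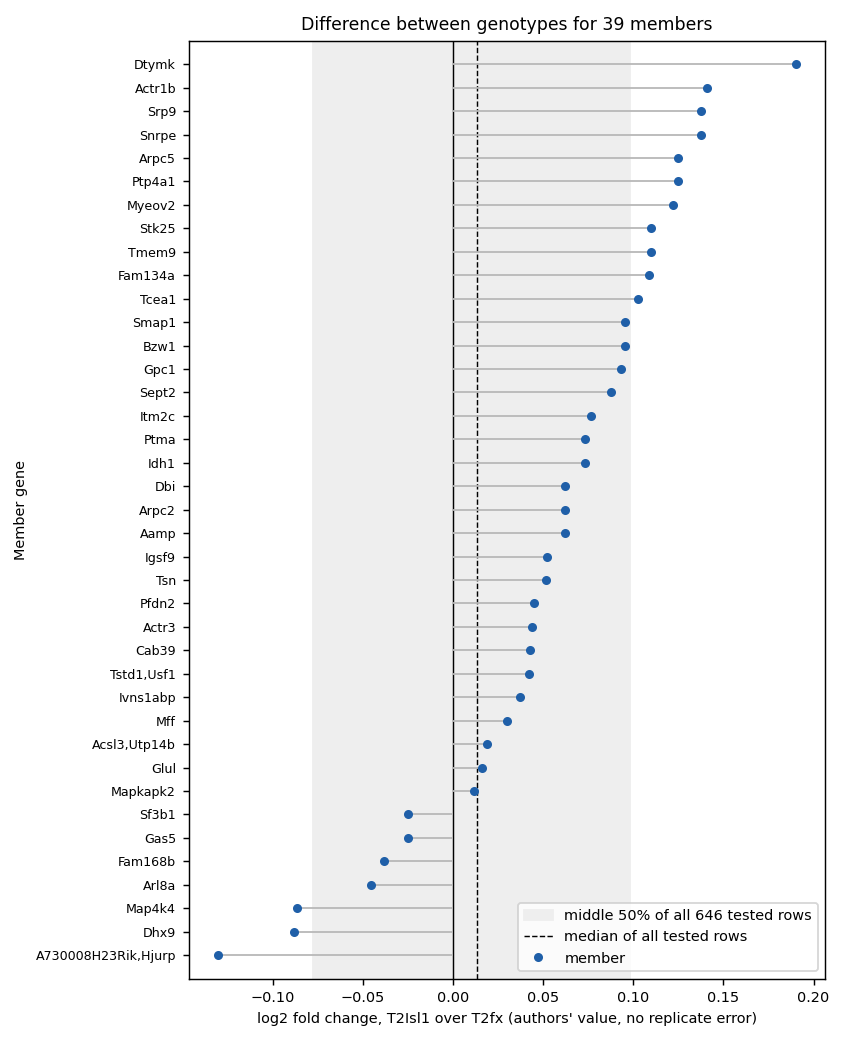
The authors' log2 fold change of 39 of the 40 members (T2Isl1 over T2fx, points), with the middle 50% of all 646 tested rows shaded and their median dashed. Points run from -0.13 for the joined row of Hjurp to 0.19 for Dtymk, with 32 of 39 right of 0.

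Among 195 rows with at least 20 FPKM in both groups, 6 had an unadjusted p under 0.05 in the authors' deposited table, and 0 of these were members. That 0 depends on the name rule. Mrpl30 (52.4 and 65.9 FPKM) and Tceb1 (89.2 and 107 FPKM) were among the 6, reached the 50 FPKM floor and were left out by name. The authors' q-value passed for 2 of the 6, the crystallins Cryge and Cryga. How small a difference the test could have found was not measured, and a lack of calls does not show that levels were equal.

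**Figure D3:**
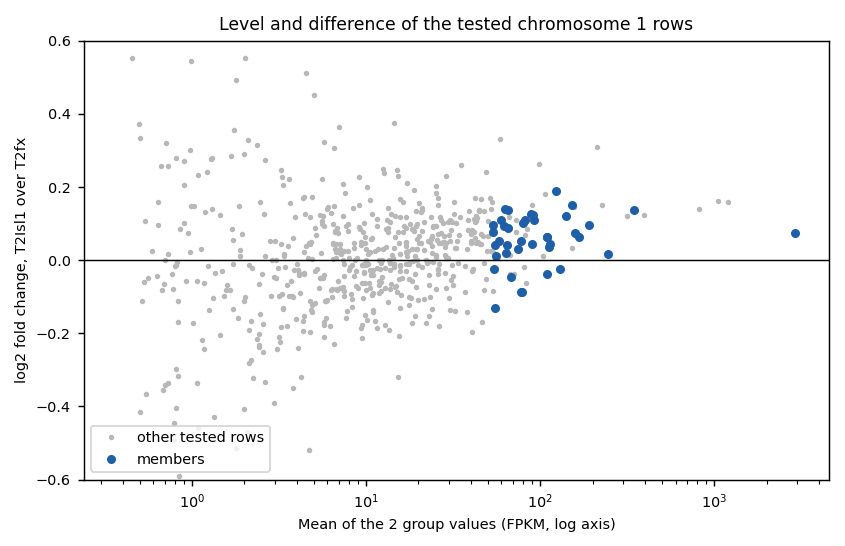
The authors' log2 fold change against the mean of the group values (FPKM, log axis) for members (blue) and other tested rows (grey). The axis is limited to 0.6 either way, which leaves out 20 rows and 0 members, and the members form a narrow band at the right.

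Genes of chromatin and transcription were led by Ptma, which encodes prothymosin alpha, a small and highly acidic nuclear protein linked to chromatin and proliferation. Ptma (chr1:86526736-86530698, plus strand, mm10) was first among the tested rows in both groups, and its values differed by 1.05-fold. Its p-value was 0.667 in the authors' deposited table. Tcea1, the elongation factor that rescues stalled RNA polymerase, had 77.1 FPKM in T2fx and 82.8 FPKM in T2Isl1. Hjurp, the chaperone that places the centromeric histone, shares a row with the gene A730008H23Rik. That joined row (chr1:88227020-88277621) had 57.2 and 52.3 FPKM, the lowest fold of the set at 0.914, and moved from rank 63 to rank 71. Usf1, an E-box factor, shares a row with Tstd1, at 63.7 and 65.6 FPKM. Across the chromatin and transcription list, 26 genes were tested, 0 were called, and 10 were higher and 16 lower. Both list members here were among the 10.

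Splicing and RNA-binding genes lay on both sides of control. Snrpe (chr1:133603871-133610280, minus strand), an Sm core protein of the spliceosomal particles, had 330 and 363 FPKM, 1.10-fold. Bzw1 (chr1:58391715-58407347, plus strand), a relative of an initiation factor that tunes start codon choice, had 186 and 198 FPKM. Tsn encodes translin, a nucleic acid binding protein, and had 76.2 and 79.0 FPKM. By contrast, Dhx9, the RNA helicase A gene, had 81.3 and 76.5 FPKM, a fold of 0.941. Sf3b1, the branch site factor of the spliceosome, had 55.0 and 54.1 FPKM. Of the 18 tested genes on this list 10 were higher, 8 lower and 0 called.

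Gas5 (chr1:161035164-161038538, plus strand) is a non-coding gene whose introns carry small nucleolar RNAs. It had 131 FPKM in T2fx and 129 FPKM in T2Isl1. The annotation places 10 small RNA genes in its locus, including Snord47, Snord78 and Snord80. Srp9, a subunit of the signal recognition particle that guides new proteins to the endoplasmic reticulum, had 62.6 and 68.9 FPKM, 1.10-fold, and went from rank 59 to rank 47. The translation and nucleolar list had no member. Its genes at the 50 FPKM floor were left out by name, and others, such as Dars at 49.95 and 48.19 FPKM, missed the floor. Bzw1 had been placed on the splicing and RNA-binding list. Of 14 tested on that list 11 were higher, 3 lower and 0 called.

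Actin genes were all above control among the members. The Arp2/3 complex, which nucleates branched actin filaments, had 3 subunit genes in the set. Arpc2 (chr1:74236497-74268213, plus strand) had 107 and 111 FPKM, Actr3 had 88.7 and 91.4 FPKM, and Arpc5 had 84.9 and 92.6 FPKM. Their folds were 1.04, 1.03 and 1.09, so the subunits stayed within a narrow range of levels in both groups. Sept2, a filament-forming septin, had 63.7 and 67.7 FPKM. Ptp4a1, a prenylated phosphatase placed on this list, had 86.5 and 94.4 FPKM. Over the whole list of 17 tested genes, 9 were higher, 8 lower and 0 called, so the members' sign was not that of the list. Pfdn2 and Actr1b were placed beside these after their values were seen. Pfdn2, a prefoldin subunit that hands unfolded actin and tubulin to a chaperonin, had 113 and 116 FPKM. Actr1b, an actin-related protein of the dynactin complex, had 59.6 and 65.7 FPKM, 1.10-fold.

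Members on the metabolic list were all above control, from 1.01-fold to 1.14-fold. Glul (chr1:153899926-153909723, plus strand), glutamine synthetase, had 245 and 248 FPKM, 1.01-fold. Dbi (chr1:120113280-120121096, minus strand), the acyl-CoA binding protein, had 165 and 172 FPKM. Idh1 (chr1:65158616-65186479, minus strand), the cytosolic isocitrate dehydrogenase, had 156 and 164 FPKM. Dtymk (chr1:93792576-93822100, minus strand), the kinase that makes thymidine diphosphate for DNA synthesis, had 115 and 132 FPKM. That was the highest fold of the set, 1.14, and the authors' deposited table gives it an unadjusted p of 0.173 and a q of 0.999677. Of 25 tested genes on the metabolic list 21 were higher, 4 lower and 0 called, and the authors' deposited table gave a median of 0.08 on a log2 scale. Acsl3, an acyl-CoA synthetase, shares a row with Utp14b, at 63.6 and 64.4 FPKM. Mff, the mitochondrial receptor for the fission machinery, had 73.7 and 75.2 FPKM. It is on the mitochondrial list, where 8 of 9 tested genes were higher, 1 lower and 0 called. On the microtubule and scaffold list, which also holds Mff, 4 of 11 were higher and 7 lower.

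Among genes linked to protein modification, Ivns1abp, a kelch-repeat protein, had 111 and 114 FPKM. The protein modification list had 12 of 19 tested genes higher, 7 lower and 0 called. Myeov2 (chr1:92637145-92641985, minus strand) had 135 and 147 FPKM. The annotation names this gene Cops9, a small subunit of the COP9 signalosome. Under that symbol the rule would have left it out.

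Genes on the membrane traffic and signalling lists included 6 members, of which 1, Arl8a, was below control. Tmem9, a lysosomal membrane protein, had 79.2 and 85.4 FPKM, and Arl8a, a small GTPase of lysosomes, had 69.4 and 67.2 FPKM. Itm2c, a BRICHOS-domain membrane protein, had 52.1 and 54.9 FPKM. The traffic list had 18 of 32 tested genes higher, 14 lower and 0 called. The remaining traffic genes, grouped after their values were seen, were Fam134a, a reticulon-like protein of the endoplasmic reticulum, at 88.9 and 95.8 FPKM, and Smap1, an activator of Arf GTP hydrolysis, at 51.7 and 55.2 FPKM. For the kinase Stk25 the values were 57.4 and 62.0 FPKM, and for Mapkapk2, a kinase downstream of p38, they were 55.5 and 56.0 FPKM. Cab39, the scaffold of the kinase LKB1, had 54.5 and 56.2 FPKM. The signalling list had 17 of 28 tested genes higher, 11 lower and 0 called.

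The remaining members, like some of those named above, were on no list. Map4k4 encodes a kinase of the Ste20 family and had 79.5 and 74.8 FPKM, a fold of 0.942. Gpc1, a heparan sulfate proteoglycan of the cell surface, had 60.0 and 64.0 FPKM. Igsf9, an immunoglobulin superfamily adhesion protein of neurons, had 57.1 and 59.2 FPKM. Fam168b had 111 and 109 FPKM, and Aamp, a WD-repeat protein, had 106 and 111 FPKM. The 15 members on no list, joined rows included, held 11 of the 33 higher and 4 of the 7 lower members.

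**Figure D4:**
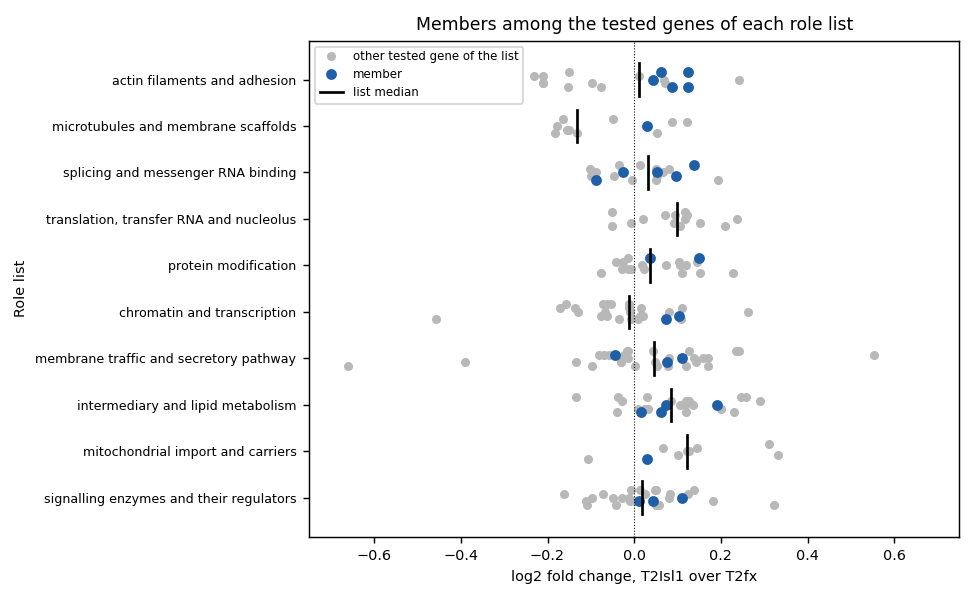
The authors' log2 fold change of every tested gene on each of 10 role lists, with members in blue, other genes in grey and the list median as a bar. Members sit within the spread of their lists, and the metabolic list has 21 of 25 genes right of 0.

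Transcript length moved with the differences. The members' longest annotated coding transcripts (any transcript where none was coding) had a median of 2561 bases in 37 matched members, against 3673 bases in 626 matched tested rows. Tested rows were ordered by length into 5 groups of near-equal size. In the shortest, up to 2098 bases, 73.8% of tested rows were higher in T2Isl1, and so were 13 of 14 members. In the next groups the shares were 70.4% and 62.4%, with 8 of 9 and 9 of 9 members higher. Between 4459 and 6368 bases 44% of tested rows were higher, and 0 of 4 members were: Dhx9, Fam168b, Map4k4 and Sf3b1. Tsn, with 7063 bases, was the 1 member in the longest group, where 22.4% of rows were higher. Spearman's rho between transcript length and log2 fold change was -0.42 over these 37 genes, which share all libraries. The part of length in the members' differences was not tested.

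**Figure D5:**
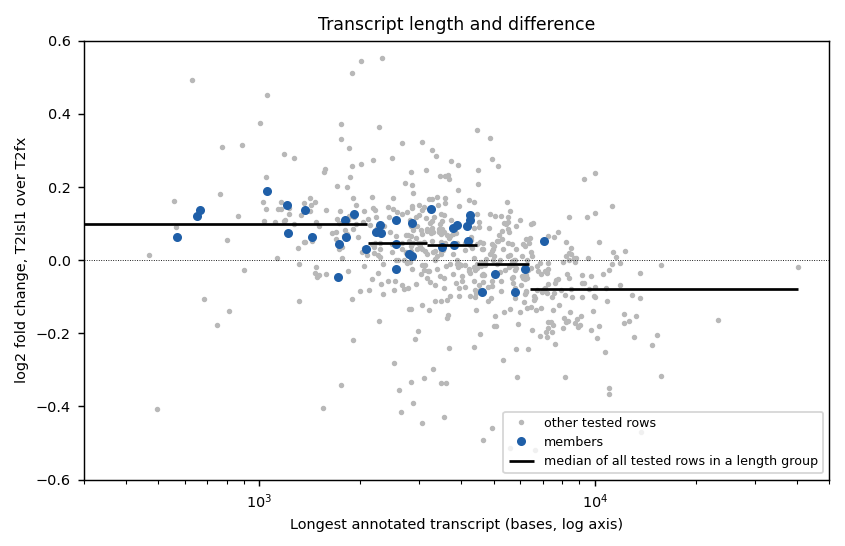
The authors' log2 fold change against the longest annotated transcript (bases, log axis), with members in blue, other tested rows in grey and black bars for the median of each length group. The bars step from 0.10 in the shortest group to -0.08 in the longest, and 21 rows lie outside the axes.

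Some members share sequence with processed pseudogenes, so their reads may have been divided. As a measure, the longest transcript was broken into runs of 50 bases, and each was searched for in annotated transcripts of other genes. Over 10% of the runs were shared in 8 members. Actr3 had 49.8%, nearly all with the pseudogene Gm8822, Ptma had 27.8% with 13 other genes, of which 12 were pseudogenes, and Snrpe had 20.8%. Others were Tcea1 (25.8%), Srp9 (15.48%), Glul (14.2%) and Ptp4a1 (11.3%). In 21 members no run was shared. How reads with several matches were treated was not given in the sources used here.

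Loci of 5 members reached over 5000 bases beyond the annotated gene. Stk25 had 107656 such bases in its locus, Smap1 83042, Fam168b 62611, Dtymk 20166 and Fam134a 7563. The genes annotated on the opposite strand inside these loci include Farp2 for Stk25, B3gat2 for Smap1, Arhgef4 for Fam168b, Ing5 for Dtymk and Cnppd1 for Fam134a. Whether reads were counted by strand was not given in the sources used here, so reads of these pairs may not be separable.

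The level floor is a cut through a continuous range. Just inside it, by the lower of the group values, were Smap1 at 51.7 FPKM, Itm2c at 52.1 FPKM and the Hjurp row at 52.3 FPKM. Just outside were Mpc2 at 49.9 FPKM, Pde6d at 49.4 FPKM and Dnpep at 49.3 FPKM. Mpc2, a subunit of the mitochondrial pyruvate carrier, had 49.9 FPKM in T2fx and 55.7 FPKM in T2Isl1.

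Among markers of other tissues most lens genes were called and few others were, and no member passed the test. All 11 retinal marker genes had a row, and their summed level was 581 FPKM in T2fx and 603 FPKM in T2Isl1, with 0 called and single genes from 0.253 to 380 FPKM in T2fx. Hes6 set the sign of that sum: the other 10 summed to 201 and 189 FPKM, and 7 of the 11 were lower in T2Isl1. The lens list summed to 1038 and 93.6 FPKM, with 7 of 8 genes called lower and Lgsn at 0 in both groups. For mesenchyme and vessels the sums over 6 genes were 38.1 and 29.3 FPKM with only Col3a1 called, lower. The most abundant of them, Fn1, had 11.9 and 10.6 FPKM and was not called. For 10 muscle genes they were 18.4 and 14.9 FPKM with only Chrng called, lower, and Chrnd at 0. Mstn, not called, held most of that sum, at 14.0 and 13.3 FPKM. Over all 646 tested rows 1.55% were called. With no value per library, a difference between pools cannot be told from one between genotypes in these markers. The part of lens or other tissue in the members' values was not tested. Isl1 and Tbr2 were not analysed here, so the knock-in itself was not checked.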

How the data were processed

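Total RNA of 6 retina libraries was sequenced on Illumina instruments. CASAVA, TopHat2 2.1.1, Cufflinks 2.1.1 and the build mm10 are named in the submitters' processing notes without their order. Which gene annotation was used was not given in the sources used here. Their table, as deposited, holds 1 FPKM value per gene and group, a unit inferred from the named tool since the header says only value. Depth per library is unknown. Per the file headers it also holds the authors' log2 fold change, a test score that was not used, a p-value and a q-value. The log2 fold change matched the ratio of the deposited FPKM values to within 1.06e-05.

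Only chromosome 1 rows were analysed, and 1 incomplete row was left out. The members were selected by level, span and name as described, and a call was an authors' q-value under 0.05. No new test was made. The members and gene lists were chosen with earlier results of these data known. Every member was placed by role list, and the 15 on no list were counted together as other roles. In the text, some of those 15 were described beside listed genes of a related role. These were Pfdn2, Actr1b, Fam134a, Smap1, Gas5, Srp9, Myeov2 and the joined rows of Hjurp, Usf1 and Acsl3. No list placed them there. Values were named for the 12 highest members, the 6 highest and 6 lowest fold changes, the 4 highest of each list and the 3 rows on either side of the floor, and then for the rest, except 1 member whose values are not reported here. Gene structure came from GENCODE M21 (mm10), matched by symbol or synonym for 37 members, and promoters from RefSeq (GRCm38.p6). Scripts used Python 3.11.15 with pandas 2.3.3, and the selection, motif search and shared-run search were checked on simulated data. Alternatives covered the level floor, span limit, name rule, joined names, call threshold, pseudocount and centring.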

Additional observations from a re-analysis of the deposited data

How the results depend on the processing

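The count of called members was 0 in each setting. With q under 0.05 kept, these were floors of 30 and 100 FPKM, no span limit and joined or repeated names left out. At the same threshold the name rule was lifted, or Ptma left out. Other criteria in its place were q under 0.01, unadjusted p under 0.05 and a 1.5-fold minimum with no test. These kept the name rule. Among rows at 20 FPKM or more in both groups only Cryge and Cryga were called, at 27.9 and 25.3 FPKM in T2Isl1. The 0 at either q threshold was therefore fixed by the floors, and nothing is read from it. The median log2 fold change stayed between 0.05 (centred on the median of all tested rows) and 0.07 (name rule lifted). Members above control numbered 70 of 89 with a floor of 30 FPKM, 13 of 15 with a floor of 100 FPKM and 55 of 66 with the name rule lifted, and 31 to 33 in the other settings. These counts changed because the number of genes changed. Their shares were 78.7%, 86.7% and 83.3%, against 82.5%. Of 80 recomputed values of single genes, 1 changed sign: Mapkapk2 became -0.0019 when centred. Lifting the name rule, leaving out Ptma and leaving the crystallin rows out of the FPKM total were chosen after seeing the data. The group values carry no replicate error, and library depth is unknown. No paired analysis was possible because what was used here gives a single value for each genotype, with no column for a library.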

Other observations

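Several members share their promoter region with a neighbour on the opposite strand. In the annotation, 9 members have a coding gene on the other strand that starts within 1000 bases of their own start, and 6 of those partners had a tested row. How many of all tested genes have such a partner was not counted. Sept2 and Hdlbp, an RNA-binding protein gene, start 149 bases apart. In the authors' deposited table Hdlbp had 38.4 and 36.1 FPKM (log2 fold change -0.09), while Sept2 had 63.7 and 67.7 FPKM (0.09). Aamp and Pnkd start 192 bases apart, with 42.6 and 46.9 FPKM for Pnkd. Fam134a and Cnppd1 start 67 bases apart, with 41.3 and 43.1 FPKM for Cnppd1. Other pairs were far apart in level. Members were chosen for a high level and partners were not, so nothing is read from a lower partner. Pikfyve, a lipid kinase gene 183 bases from Idh1, had 4.02 and 3.99 FPKM. Rgl1, 191 bases from Arpc5, had 3.72 and 3.28 FPKM. The uncharacterised gene 3110009E18Rik, 109 bases from Dbi, had 12.6 and 16.3 FPKM. None of the 6 partners was called in the authors' deposited table, where their q-values were all 0.999677.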
